A study of Mus musculus with 7 samples.

Results

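The 10 genes described here encode the machinery that folds chromosomes into loops. They are Smc1a, Smc3, Rad21, Stag1 and Stag2 of the cohesin complex, its partners Nipbl, Pds5a and Pds5b, the loop-anchoring factor Ctcf and the topoisomerase gene Top2b. They were taken from a fixed list of cohesin and chromatin loop genes, each read through the probe set with the highest mean among those with 1 gene symbol, and all 10 were found among 19937 such genes. The list was drawn up with the comparison of reconSCID with reconRAG1KO on all 7 arrays already known. The values of these genes in that comparison are therefore given as a description, with no test.

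The arrays measured RNA of sorted medullary epithelial cells of the thymus, those rich in MHC class II, from mice of the NOD strain. The 4 reconRAG1KO samples came from mice with a null Rag1, the lymphocyte recombinase gene, which the series names as its control. In the 3 reconSCID samples the recipients carried the SCID mutation, which affects DNA-PK, the kinase of DNA end joining. Mice of both groups were irradiated with 200 rad and given bone marrow by intraperitoneal injection 6 h later, as pups of 2 to 4 days, and their thymi were taken 6 to 8 weeks after the transfer. Both groups therefore carry a defect of lymphocyte development, and both thymi were filled from transferred marrow. The labels call the samples biological replicates and do not say how many thymi each held or from which strain the marrow came, so p-values measure the spread between these samples.

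Cohesin is a ring of the paired ATPases Smc1a and Smc3 closed by Rad21, to which 1 of the paralogs Stag1 or Stag2 is bound. Nipbl loads the ring on chromatin and drives the extrusion of loops, Pds5a and Pds5b regulate its release and its pausing, and Ctcf bound to DNA stops it and so sets the anchors of loops. Topoisomerase II beta, the product of Top2b, relaxes DNA through transient double-strand breaks and is often found at such anchors. In medullary epithelium these genes are of interest because cohesin subunits, topoisomerase II and DNA-PK have been found among the proteins associated with Aire, the regulator of tissue-restricted antigen expression.

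Promoter sequences from RefSeq (GRCm38.p6) were at hand for 7 of the 10 genes, namely Smc1a, Smc3, Stag1, Pds5a, Pds5b, Ctcf and Top2b. Each window runs from 250 bases before to 50 bases after a gene start and reads 5′ to 3′ along the gene. The windows of Smc3, Ctcf and Pds5b are shown because they share 1 word at their gene starts, and that of Top2b because this gene had the largest group difference of the 10. Capitals mark the YY1 word GCCATNTT, the core CTCF word AGNGGGCGC and the CCAAT box, CCAAT, each searched on both strands.
Smc3 (chr19:53600146-53600445, + strand): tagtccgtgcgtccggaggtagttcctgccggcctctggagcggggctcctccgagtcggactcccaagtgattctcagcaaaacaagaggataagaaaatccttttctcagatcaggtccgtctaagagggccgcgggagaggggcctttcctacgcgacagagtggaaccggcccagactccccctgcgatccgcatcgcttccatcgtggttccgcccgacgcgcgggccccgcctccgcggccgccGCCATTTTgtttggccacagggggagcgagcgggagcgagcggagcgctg
Ctcf (chr8:105636288-105636587, + strand): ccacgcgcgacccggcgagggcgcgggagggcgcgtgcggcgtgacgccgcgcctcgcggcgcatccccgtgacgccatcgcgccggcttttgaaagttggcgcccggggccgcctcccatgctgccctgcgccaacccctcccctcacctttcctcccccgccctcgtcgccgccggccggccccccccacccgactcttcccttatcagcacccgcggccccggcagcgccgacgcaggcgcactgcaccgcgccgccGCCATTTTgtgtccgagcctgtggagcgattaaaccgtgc
Pds5b (chr5:150673577-150673876, + strand): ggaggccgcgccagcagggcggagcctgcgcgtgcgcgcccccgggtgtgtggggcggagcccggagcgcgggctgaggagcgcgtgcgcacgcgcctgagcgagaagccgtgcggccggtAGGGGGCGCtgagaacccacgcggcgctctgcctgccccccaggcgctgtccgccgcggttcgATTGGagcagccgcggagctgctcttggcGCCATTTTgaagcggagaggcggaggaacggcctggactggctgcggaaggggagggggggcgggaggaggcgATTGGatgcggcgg
Top2b (chr14:16364956-16365255, + strand): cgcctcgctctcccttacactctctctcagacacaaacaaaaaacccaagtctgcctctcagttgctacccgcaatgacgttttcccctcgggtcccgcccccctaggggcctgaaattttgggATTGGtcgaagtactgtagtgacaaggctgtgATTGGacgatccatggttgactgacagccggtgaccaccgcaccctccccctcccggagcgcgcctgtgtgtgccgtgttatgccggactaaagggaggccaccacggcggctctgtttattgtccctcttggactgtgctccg

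The YY1 word was found in 4 of the 7 windows, those of Smc3, Stag1, Pds5b and Ctcf, and in 6.05% of 32851 promoter windows of the same length. It began at base 251 of the Smc3 window, the annotated start itself, and at bases 261 and 214 of the Ctcf and Pds5b windows. The CTCF word was found only in the Pds5b window among the 7, and in 2.88% of all windows. The GC box GGGCGG was found in 7 of 7 and in 35.7% of all windows, the CCAAT box in 4 of 7 and 37.4%, and the E2F word TTGGCGC in 3 of 7 (Pds5a, Pds5b and Ctcf) and 2.45%. In Pds5b the E2F word overlaps the YY1 word by its final letters. The 7 windows had a GC content of 58.3% to 80.3%, against a median of 52.7% over all windows, and the shares are not matched for it. The words were chosen after the sequences had been seen, and a match is a description of letters, not of binding.

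The arrays fell into 2 sets, and this touches each value below. ReconRAG1KO replicate 4 and reconSCID replicate 2 (here the smaller array set) had a mutual Pearson correlation of 0.972 over all probe sets, against 0.976 to 0.990 among the remaining 5 arrays (the larger array set) and 0.922 to 0.947 between the sets. The labels name no batch, and since each set holds both groups, differences are given within each set too. All 13 medullary markers were measured, with a summed log2 intensity of 15.19 to 15.25 in reconRAG1KO and 15.09 to 15.19 in reconSCID, and the dimmest of them by mean, Tnfrsf11a, averaged 9.32. The invariant chain and class II genes Cd74, H2-Aa and H2-Ab1 are the brightest of these markers and dominate the sum, which does not show that the others were level. Between the array sets the markers moved both ways. Smaller minus larger was 1.76 for Krt5 and 1.03 for Aire, but -2.33 for Ccl22 and -2.31 for Cd86. The median over the 13 was 0.03, while that over the 8 dendritic cell and macrophage markers was -1.05. Which cells gave the values of these markers was not tested. Marker by marker 12 of the 13 were lower in reconSCID over all arrays, with a median difference of -0.20. Within the larger array set 4 of the 13 were higher, with a median of -0.29. Within the smaller set 5 were higher, with a median of -0.07. Over all arrays the tight junction gene Cldn4 differed by -0.71 and Tnfrsf11a by -0.20, both with separate groups. Of all 19937 genes, 308 were separate with reconSCID lower. After limma's adjustment 0 of the 13 markers passed. The sums of 7 of 8 listed B cell markers were 9.51 to 9.90 and 9.72 to 11.77, of 10 of 10 thymocyte markers 10.80 to 11.72 and 10.51 to 12.02, and of 8 of 8 dendritic cell and macrophage markers 12.69 to 13.39 and 12.28 to 14.05. Neutrophil sums (8 of 8 markers) were 10.14 to 13.16 and 9.80 to 10.72, endothelial and fibroblast sums (8 of 8) 10.39 to 11.85 and 10.52 to 12.62, and cycling cell sums (9 of 10) 11.03 to 11.75 and 11.36 to 11.87. Taken singly, 7 of 7 B cell markers were higher in reconSCID (median 1.13) and 8 of 8 neutrophil markers lower (median -1.49). Of all genes 47.6% were higher. Dendritic cell and macrophage markers were 7 higher and 1 lower (median 0.16), endothelial and fibroblast markers 7 and 1 (0.24). Thymocyte markers were 5 higher and 5 lower (0.01), cycling cell markers 5 and 4 (0.18). Within the larger and smaller array sets the medians were 1.53 and 0.25 for B cells and -1.92 and -0.28 for neutrophils. For dendritic cells and macrophages they were 0.59 and -0.37. After limma's adjustment 0 markers of these lists passed. None of the markers was at 0 on any array, and values of the deposited table carry no detection call. In these bulk samples fewer cells of a type and less RNA per cell cannot be told apart. Aire (probe set 10370397) averaged 11.20 ± 0.49 (SD, n = 4) and 10.63 ± 0.87 (SD, n = 3), and Prkdc (probe set 10433797), the gene of the DNA-PK catalytic subunit, 7.26 ± 0.07 (SD, n = 4) and 7.40 ± 0.23 (SD, n = 3). The SCID mutation alters the coding sequence, so the level of Prkdc does not check the label.

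All 10 genes had a higher mean in reconSCID than in reconRAG1KO, by a factor of 1.04 for Rad21 to 1.45 for Top2b. Their median difference was 0.29 on the log2 scale, while the median over all 19937 genes was -0.01 and 47.6% of those genes had a higher mean in reconSCID. The groups overlapped for 9 of the 10 and were separate for Smc1a alone; over all genes, 1.23% were separate with reconSCID higher. In the whole comparison limma called 0 of 34760 probe sets at an adjusted p under 0.05, which is 0%, and 1159 (3.33%) at an unadjusted p under 0.05. Since the genes were chosen with this contrast known, nothing is read from their counts against these shares. The lowest value of any of the 10 genes on any array was 7.52, above the array medians of 6.47 to 6.59, and no filter on low values was applied. Intensities of different probe sets are not on 1 scale, so levels are compared between arrays and not between genes.

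**Figure D1:**
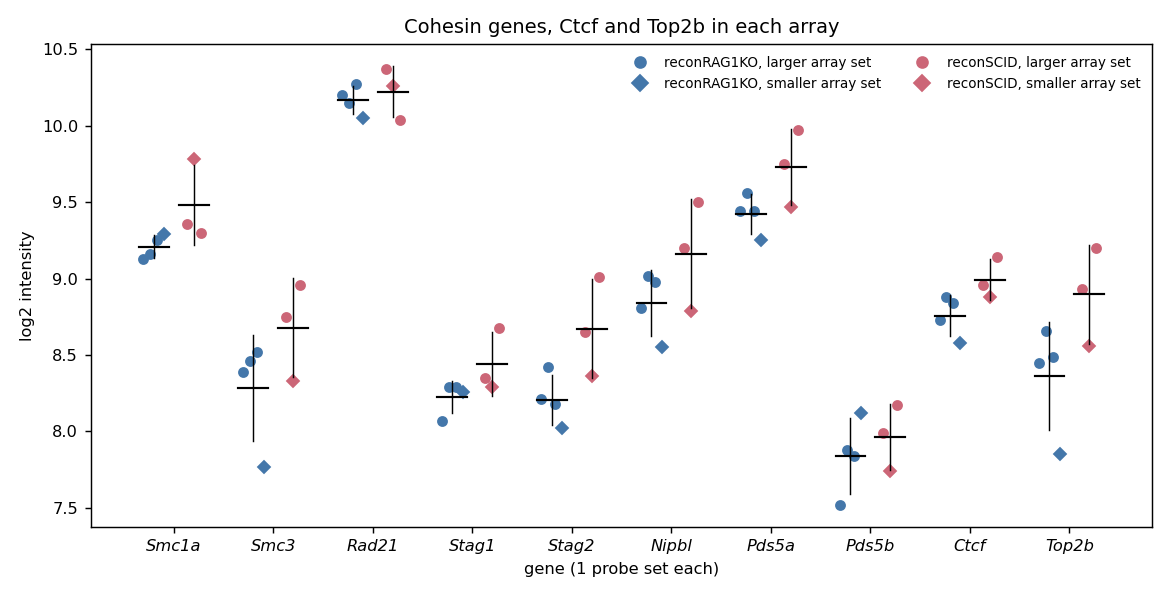
Log2 intensity (vertical axis) of each of the 10 genes on each of the 7 arrays. Blue points are reconRAG1KO and red points reconSCID, diamonds mark the 2 arrays of the smaller array set, horizontal bars the group mean and vertical bars 1 SD. Smc1a is the 1 gene whose groups do not overlap, and the blue diamond is the lowest of the 7 points for 6 genes.

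Of the ring itself, Smc1a (probe set 10602599) measured 9.13, 9.16, 9.25 and 9.29 in reconRAG1KO replicates 1 to 4 and 9.36, 9.78 and 9.30 in reconSCID replicates 1 to 3. Every reconSCID array was above every reconRAG1KO array, but reconSCID replicate 3 exceeded the highest control by 0.01 only. Group means were 9.21 ± 0.07 (SD, n = 4) and 9.48 ± 0.26 (SD, n = 3). They differed by 0.27, or by 0.12 without reconSCID replicate 2. Smc1a was the sole gene of the 10 with its highest value in that array. Smc1a and Stag2 lie on the X chromosome, and Xist, looked up after the values had been seen, measured 5.11, 9.96, 6.22 and 5.26 in reconRAG1KO and 8.02, 5.68 and 9.61 in reconSCID. The samples thus differ in Xist within both groups, and its part in the values of Smc1a and Stag2 was not tested.

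Smc3 (probe set 10463951), the partner ATPase of Smc1a, measured 8.39, 8.46, 8.52 and 7.77 in reconRAG1KO and 8.75, 8.33 and 8.96 in reconSCID. The lowest array was reconRAG1KO replicate 4 and the next reconSCID replicate 2, the 2 arrays of the smaller set, while reconSCID replicates 1 and 3 stood above all others. Smc3 averaged 8.29 ± 0.35 (SD, n = 4) and 8.68 ± 0.32 (SD, n = 3). Its difference was 0.39, or 0.40 within the larger array set and 0.56 between the 2 arrays of the smaller set. Without reconRAG1KO replicate 4 the Smc3 difference was 0.22.

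Rad21 (probe set 10428561), the subunit that closes the ring and is cut at anaphase, measured 10.20, 10.15, 10.27 and 10.05 in reconRAG1KO and 10.37, 10.26 and 10.04 in reconSCID. It varied least of the 10, with a range of 0.32 over the 7 arrays, and its groups overlapped over most of that range. Its averages were 10.17 ± 0.09 (SD, n = 4) and 10.23 ± 0.16 (SD, n = 3), which are 0.06 apart. The gap became -0.02 without reconSCID replicate 1 and was 0.00 within the larger array set. Rad21 was also the sole gene of the 10 that was lowest in reconSCID replicate 3, the array in which 8 of the 10 had their highest value.

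Stag1 and Stag2 are alternative subunits, of which each ring carries 1. Stag2 (probe set 10599377), the paralog tied more to enhancers and to local contacts in other cells, measured 8.21, 8.42, 8.18 and 8.02 in reconRAG1KO and 8.65, 8.36 and 9.01 in reconSCID. Stag1 (probe set 10588154), the paralog enriched at Ctcf sites, measured 8.07, 8.29, 8.29 and 8.26 in reconRAG1KO and 8.35, 8.29 and 8.68 in reconSCID. The 3 Stag1 values of 8.29 are identical in the deposited table, in which 46.2% of probe sets hold at least 2 equal values, so the Stag1 spread may look smaller than it was. Stag2 had a group difference of 0.47 and Stag1 of 0.22. Without reconSCID replicate 3 these were 0.30 and 0.10. With the difference between the paralogs centred on its mean over the arrays, Stag2 minus Stag1 was 0.05, 0.04, -0.20 and -0.33 in reconRAG1KO and 0.21, -0.02 and 0.24 in reconSCID, which overlap.

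The loader gene Nipbl (probe set 10427538) measured 8.81, 9.02, 8.98 and 8.55 in reconRAG1KO and 9.20, 8.79 and 9.50 in reconSCID. Within the larger array set both reconSCID arrays exceeded all 3 controls, and across the 7 arrays reconSCID replicate 2 lay below 3 of the 4 controls. Nipbl averaged 8.84 ± 0.21 (SD, n = 4) and 9.16 ± 0.36 (SD, n = 3), so reconSCID was higher by 0.33, or by 0.16 without reconSCID replicate 3 and 0.51 without reconSCID replicate 2.

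Of the Pds5 paralogs, Pds5a (probe set 10530225) measured 9.44, 9.56, 9.44 and 9.25 in reconRAG1KO and 9.75, 9.47 and 9.97 in reconSCID. Pds5b (probe set 10527832) measured 7.52, 7.88, 7.84 and 8.12 in reconRAG1KO and 7.99, 7.74 and 8.17 in reconSCID. Pds5a followed the common pattern, lowest in reconRAG1KO replicate 4 and highest in reconSCID replicate 3, with a difference of 0.31, or 0.19 without that last array. Pds5b departed from it, since reconRAG1KO replicate 4 was its second highest array. Its difference was 0.12 over all arrays, 0.33 within the larger set and -0.38 between the 2 arrays of the smaller set, 0.02 without reconRAG1KO replicate 1 and 0.24 without reconSCID replicate 2. Pds5b was the sole gene of the 10 with opposite signs in the 2 array sets, apart from Rad21 at 0.00 in the larger set.

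Ctcf (probe set 10574812) measured 8.73, 8.88, 8.84 and 8.58 in reconRAG1KO and 8.96, 8.88 and 9.14 in reconSCID. The groups touched, since reconRAG1KO replicate 2 and reconSCID replicate 2 both read 8.88. Ctcf averaged 8.76 ± 0.14 (SD, n = 4) and 9.0 ± 0.13 (SD, n = 3). ReconSCID was higher by 0.24, which was 0.24 within the larger set and 0.31 within the smaller.

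Top2b (probe set 10412844), whose promoter window above carries a pair of CCAAT boxes, measured 8.45, 8.66, 8.49 and 7.85 in reconRAG1KO and 8.93, 8.56 and 9.20 in reconSCID. It had the widest range of the 10, 1.35 over the 7 arrays, from reconRAG1KO replicate 4 to reconSCID replicate 3. Top2b averaged 8.36 ± 0.35 (SD, n = 4) and 8.90 ± 0.32 (SD, n = 3). The Top2b difference was 0.54 over all arrays, 0.53 within the larger array set, 0.71 between the 2 arrays of the smaller set and 0.37 without reconRAG1KO replicate 4.

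**Figure D2:**
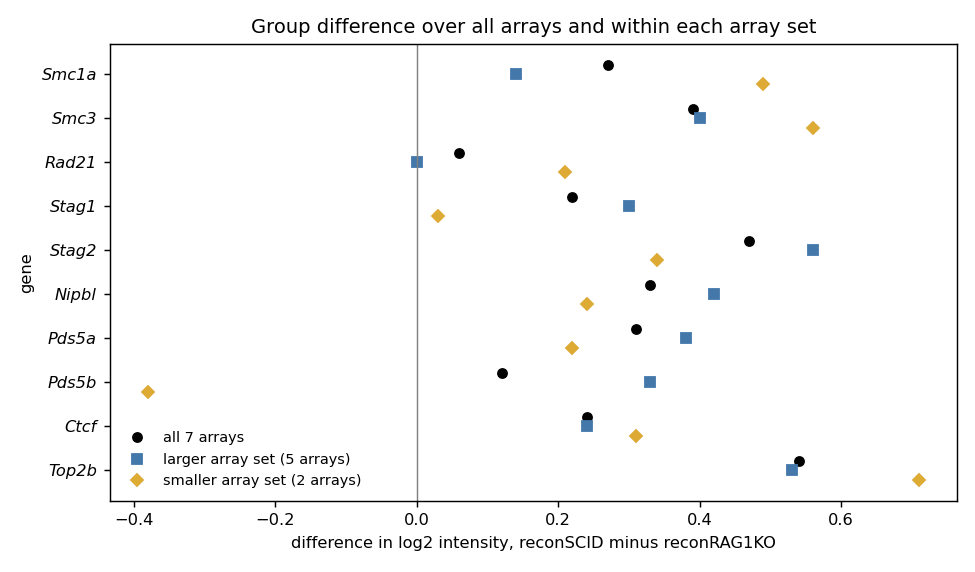
Difference in log2 intensity, reconSCID minus reconRAG1KO (horizontal axis), for each of the 10 genes over all 7 arrays (black), within the 5 arrays of the larger set (blue squares) and between the 2 arrays of the smaller set (yellow diamonds). Pds5b lies at -0.38 in the smaller set and Rad21 at 0.00 in the larger set, and the other points are above 0.

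Within the larger array set 9 of the 10 genes, all but Rad21, had both reconSCID arrays above all 3 reconRAG1KO arrays, beside 13.7% of all genes. Their median difference there was 0.36, against -0.01 over all genes. In the smaller set 9 of the 10, all but Pds5b, were higher in the reconSCID array, beside 46% of all genes, with a median of 0.27. When limma was given the array set as a block, the 10 had a median of 0.30. As the members were chosen with all 7 arrays in view, these values too are descriptions.

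The 10 genes also had unlike levels in the 2 array sets. The smaller set was lower than the larger by 0.57 for Smc3, 0.54 for Top2b, 0.43 for Nipbl and 0.31 for Stag2, and higher for Smc1a by 0.29, with a median over the 10 of -0.23 against 0.12 over all genes. Centred on each gene's own mean, the 10 genes averaged -0.16, -0.01, -0.05 and -0.28 in reconRAG1KO replicates 1 to 4 and 0.18, -0.01 and 0.34 in reconSCID replicates 1 to 3. In reconSCID replicate 1 all 10 were above their own mean, in replicate 3 8 of them and in replicate 2 only 3. ReconRAG1KO replicate 4 held the lowest value of 6 of the 10 (14.4% of all genes) and reconSCID replicate 3 the highest of 8 (15.3%). Without reconSCID replicate 3 the median difference of the 10 was 0.18.

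**Figure D3:**
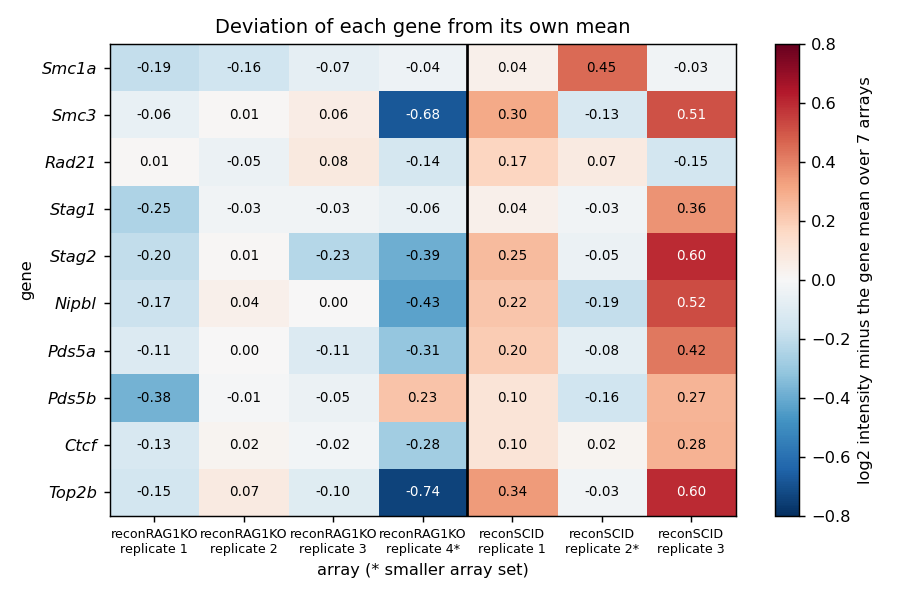
Log2 intensity of each gene minus its own mean over the 7 arrays, with genes as rows and arrays as columns, blue below and red above the mean, and reconRAG1KO left of the black line. Stars mark the smaller array set. The strongest blue is reconRAG1KO replicate 4 for Top2b (-0.74) and Smc3 (-0.68), and the strongest reds are Top2b and Stag2 in reconSCID replicate 3 (0.60 each).

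ReconSCID replicates 3 and 1, the arrays with the highest mean of these genes, were also the highest in the B cell sum (11.77 and 10.69) and in the dendritic cell and macrophage sum (14.05 and 13.63). Cycling cell markers had their lowest sums, 11.03 and 11.36, in reconRAG1KO replicate 4 and reconSCID replicate 2, and their highest, 11.87, in reconSCID replicate 3. Thymocyte markers likewise had their lowest sums in those arrays (10.80 and 10.51) and their highest, 12.02, in reconSCID replicate 3. Endothelial and fibroblast markers had their highest sums in the 2 arrays of the smaller set (11.85 and 12.62), against 10.39 to 10.76 in the others. Single markers departed from these sums. In reconRAG1KO replicate 4 and reconSCID replicate 2 the endothelial marker Kdr was lowest (7.01 and 7.33) and the thymocyte marker Ptcra highest (7.02 and 6.99). The cycling marker Plk1 was 8.48 in reconSCID replicate 2 and 8.22 in replicate 3. The neutrophil sum was highest in reconRAG1KO replicate 2 (13.16). Aire ran the other way across the arrays, from 9.73 in reconSCID replicate 3 to 11.93 in reconRAG1KO replicate 4. The part of these cell types in the values of the 10 genes was not tested.

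Similarity among the 10 was measured as the root mean square distance between a gene's 7 centred log2 values and the mean of the other 9. Ctcf (0.047) and Pds5a (0.058) lay closest to the others, followed by Stag1 (0.117), Nipbl (0.129) and Stag2 (0.146). Smc1a lay farthest at 0.283, with Pds5b at 0.245, Top2b at 0.237, Rad21 at 0.235 and Smc3 at 0.204. Top2b and Smc3 shared the ends of the mean profile with wider swings, lowest in reconRAG1KO replicate 4 and highest in reconSCID replicate 3. Smc1a, Rad21 and Pds5b did not have both ends, nor did Stag1, which was lowest in reconRAG1KO replicate 1. The core ring subunits Smc1a, Smc3 and Rad21 thus did not share 1 profile: centred Smc3 minus Smc1a ranged from -0.65 in reconRAG1KO replicate 4 and -0.58 in reconSCID replicate 2 to 0.54 in reconSCID replicate 3.

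Of the 19927 other genes, those nearest to the mean profile of the 10 over the 7 arrays were Arfgef1, a guanine nucleotide exchange factor for ARF GTPases, at a distance of 0.020, and Atad5, which unloads the sliding clamp PCNA, at 0.025. Next came the protease inhibitor gene Slpi at 0.039, the zinc finger gene Zfp869 at 0.043 and the splicing helicase gene Dhx15 at 0.044. The median distance over all other genes was 0.286, and a flat profile lies at 0.191. Arfgef1 measured 9.08, 9.22, 9.22 and 8.95 in reconRAG1KO and 9.42, 9.22 and 9.53 in reconSCID, again lowest in reconRAG1KO replicate 4 and highest in reconSCID replicate 3. These neighbours depend on the normalization and on the arrays used. After quantile normalization 1 of the 5 stayed among the nearest 5, and 0 did within the larger array set. The count was 2 without reconRAG1KO replicate 4, reconSCID replicate 2 or reconSCID replicate 3, and 3 to 4 without each of the other samples.

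**Figure D4:**
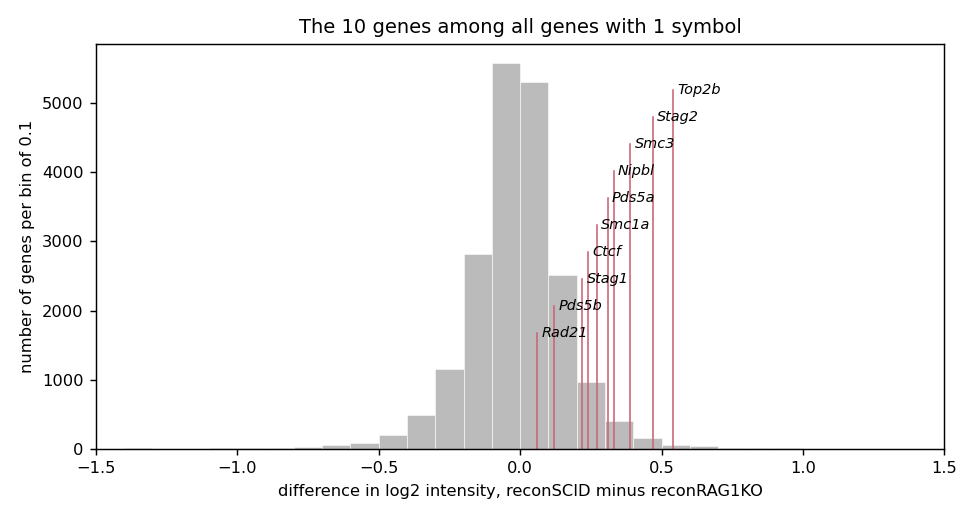
Number of genes (vertical axis) by difference in log2 intensity, reconSCID minus reconRAG1KO (horizontal axis, bins of 0.1), over 19937 genes, of which 9 lie beyond 1.5 and are not drawn. Red lines mark the 10 genes, with heights chosen only to place the names. All 10 lie above 0, from Rad21 at 0.06 to Top2b at 0.54.

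Related genes not among the 10 were tested in the same limma fit, from 4 lists of 43 genes, of which 42 were measured. None passed at an adjusted p under 0.05, with or without the array set as a block. At an unadjusted p under 0.05, 2 were higher and 0 lower without the block, where 0.863% and 1.19% of all genes were. With the block 10 were higher and 3 lower, where 5.34% and 6.75% of all genes were. The array sets were drawn from these same intensities, so unadjusted p-values with the block may be too small. Their median difference was 0.04, with 28 higher and 14 lower.

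Among 13 other cohesin genes and regulators, 0 passed, 7 were higher and 6 lower, with a median of 0.03. Wapl, which with the Pds5 proteins releases cohesin, measured 9.05, 9.05, 8.94 and 8.35 in reconRAG1KO and 9.25, 8.96 and 9.48 in reconSCID. Its order of arrays was that of Nipbl and Smc3 at the ends, lowest in reconRAG1KO replicate 4 and highest in reconSCID replicate 3. The Wapl difference was 0.38 with a 95% interval from -0.13 to 0.89, and 0.43 with the block (limma adjusted p = 0.254). It was 0.22 without reconRAG1KO replicate 4. Esco1, an acetyltransferase that locks cohesin on DNA through Smc3, differed by 0.42 (interval -0.79 to 1.64), which was 0.05 without reconRAG1KO replicate 4, the array at 5.86 where the other controls were at 7.27 to 7.38. Without reconSCID replicate 2 it was 0.88, and a dimmer probe set read 0.69. Mau2, the partner of Nipbl in the loader, measured 8.58, 8.65, 8.58 and 8.72 in reconRAG1KO and 8.52, 8.58 and 8.49 in reconSCID, which is -0.10 (interval -0.30 to 0.09). The loader's partners thus had differences of opposite sign, 0.33 for Nipbl and -0.10 for Mau2, and whether they differed from each other was not tested.

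The germ line paralogs were dim on their probe sets. Over the 7 arrays Rad21l averaged 3.60, Smc1b 4.59 and Ctcfl 6.20, and the meiotic subunit genes Rec8 and Stag3 averaged 6.43 and 6.45, all below the lowest array median of 6.47. A difference would be hard to see in genes at these levels, and 0 of the 5 passed. Stag3 nonetheless ranged from 6.00 in reconRAG1KO replicate 1 to 6.98 in reconRAG1KO replicate 4. Its smaller minus larger array set value was 0.68.

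Condensin and the SMC5/6 complex, relatives of cohesin that compact mitotic chromosomes and act in repair, held the largest differences among related genes. Of 15 listed genes 0 passed, 12 were higher and 3 lower, with a median of 0.06, and at an unadjusted p under 0.05 2 were higher without the block (0.863% of all genes) and 6 with it (5.34%). Smc6, the ATPase partner of Smc5, measured 7.65, 8.01, 7.86 and 7.24 in reconRAG1KO and 8.25, 8.17 and 8.67 in reconSCID. Every reconSCID array was above every control. The Smc6 difference was 0.67 with a 95% interval from 0.16 to 1.18 (limma adjusted p = 1), and 0.71 with the block (limma adjusted p = 0.2472). Smc4 of condensin measured 8.14, 8.35, 8.28 and 7.12 in reconRAG1KO and 8.68, 8.13 and 9.05 in reconSCID. Its difference was 0.65 (interval -0.20 to 1.5), or 0.36 without reconRAG1KO replicate 4. Smchd1, a noncanonical SMC gene, had probe sets that disagreed, at 0.04 for the brighter and 0.59 for the other.

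Other architectural factors (7 of 8 listed measured) had a median of 0.03 with 0 passing. Satb1, a chromatin organiser abundant in thymocytes, differed by 0.21 (interval -0.85 to 1.28), which was -0.26 without reconSCID replicate 3. Ldb1, an adaptor of enhancer loops, had a value of -0.16 (interval -0.54 to 0.23), which was -0.04 without reconRAG1KO replicate 4 and -0.26 without reconSCID replicate 2.

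Among 7 other topoisomerases and their repair enzymes 0 passed, 4 were higher and 3 lower, with a median of 0.03. Top2a, the paralog of Top2b used in dividing cells, measured 8.80, 9.21, 9.14 and 8.19 in reconRAG1KO and 9.20, 9.04 and 9.65 in reconSCID, so that its groups overlapped. The Top2a difference was 0.46 (interval -0.20 to 1.13), or 0.25 without reconRAG1KO replicate 4, and a second, dim probe set read 0.08. Top1, which nicks a single strand, differed by 0.43 (interval -0.31 to 1.17), or by 0.18 without reconRAG1KO replicate 4 and 0.66 without reconSCID replicate 2.

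**Figure D5:**
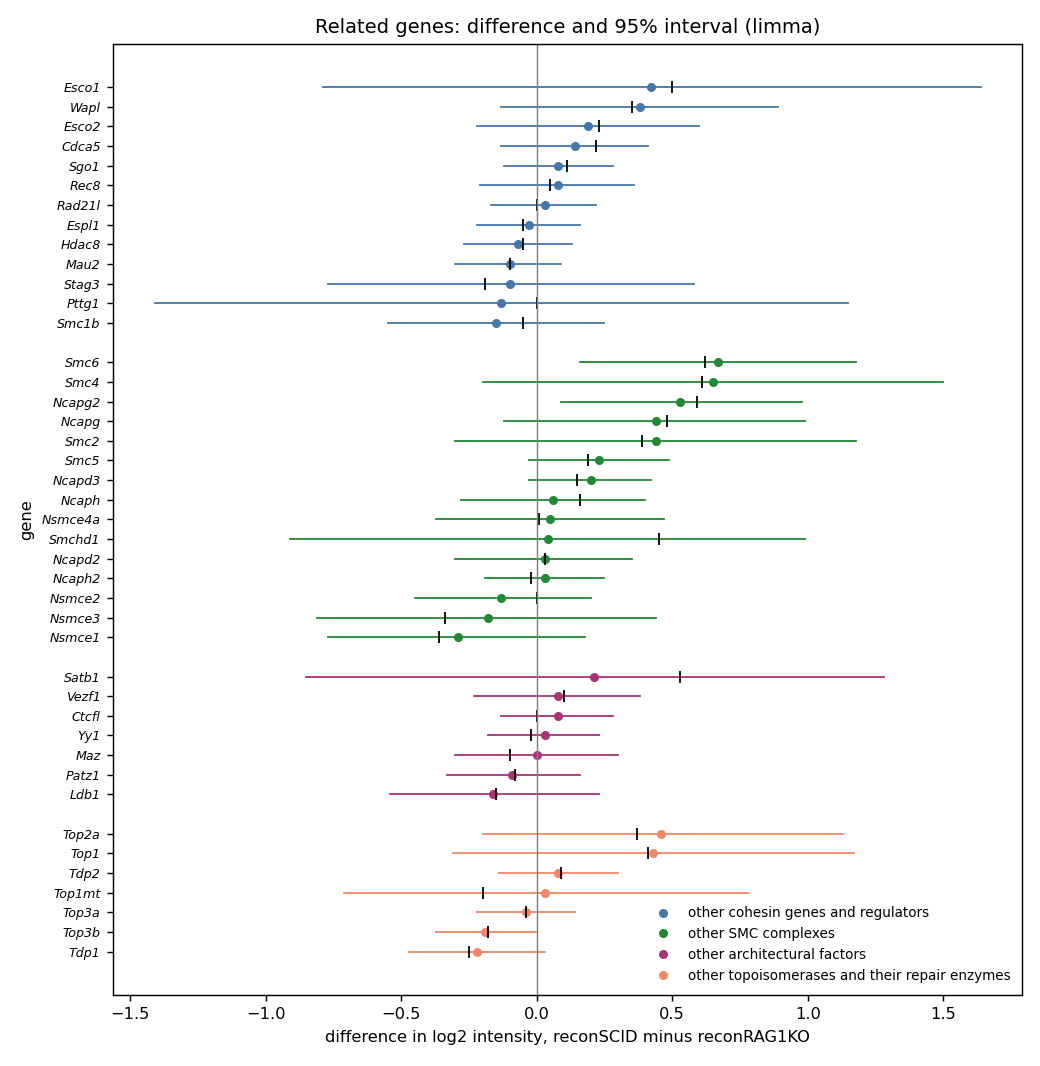
Difference in log2 intensity, reconSCID minus reconRAG1KO (horizontal axis), for 42 related genes grouped and coloured by list. Points are the difference over 7 arrays, lines its 95% interval by limma and black ticks the difference within the larger array set. Smc6 (0.67) and Ncapg2 (0.53) are the 2 genes whose interval lies above 0, and neither passed after adjustment.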

How the data were processed

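RNA (6 µg) of 7 samples was labelled with biotin by the Affymetrix protocol, per the labels. The deposited table gives a linear intensity, already summarised, for each of 34760 probe sets. Array medians were 88.58 to 90.28 in the larger array set. In the smaller set they were 96.3 (reconRAG1KO replicate 4) and 95.06 (reconSCID replicate 2). The sources used here do not give the method of summary or normalization. With 0 missing values and 0 below 1, no pseudocount was added before log2. Of these 21640 had 1 gene symbol in the platform annotation, 1321 several and 11799 were unnamed in the annotation used here. Groups and replicate numbers came from the sample titles. The test was limma's moderated linear model (version 3.58.1, R 4.3.3), two-sided, with p-values adjusted by Benjamini-Hochberg over all probe sets, a threshold of 0.05 and a trial on simulated data. The trial recovered 48 of 100 changes of 2-fold and 89 of 100 of 4-fold, and called 5 unchanged probe sets. A count of 0 passing therefore does not show that smaller changes were absent. Array sets are 2 clusters of average linkage on 1 minus Pearson's correlation. The number of arrays limits the precision.

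The 10 genes, the lists and the alternatives were chosen with earlier results of these data known. Named are the 10, the 2 related genes per list with the largest absolute difference, germ line paralogs, Wapl, Mau2, Top2a, Aire, Prkdc and the 5 genes nearest in pattern. Ncapg2, Smchd1, Tnfrsf11a and Xist were named after their values were seen. Alternatives were a block for the array set, the larger set alone, quantile normalization, median centring, a pseudocount of 16, a filter on dim probe sets, weighted arrays, the replicate block, each sample left out, the mean of a gene's probe sets, and probe sets whose 7 values all differ.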

Additional observations from a re-analysis of the deposited data

Results flagged for a closer look

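Among 27 results tested over the 4 reconRAG1KO samples, 7 had a sample far from the other 3, where chance gives about 1 in 20. The results share the same 4 arrays, so their flags are not independent and nothing is read from the count against that rate. ReconRAG1KO replicate 4, of the smaller array set, was far below the others for Smc3 (7.77, next 8.39), Wapl (8.35, next 8.94), Esco1 (5.86, next 7.27), Top1 (8.10, next 9.03) and Ctcfl (6.06, next 6.20), and far above them for Smc1b (5.09, next 4.51). The other 3 Ctcfl values are equal in the deposited table. Stag1 was far below in reconRAG1KO replicate 1 (8.07, next 8.26).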

How the results depend on the processing

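The median difference of the 10 genes lay between 0.18 and 0.37 over 17 alternatives, both ends of which came from leaving out a sample (0.18 without reconSCID replicate 3, 0.37 without reconSCID replicate 2). All measured genes of the 10 were higher under these alternatives except Rad21, which ran from -0.02 without reconSCID replicate 1 to 0.15 without reconSCID replicate 3 and was 0.00 in the larger array set. Stag1 and Ctcf have tied values and were not measured where all 7 values had to differ. Among related genes named, Satb1 ran from -0.26 without reconSCID replicate 3 to 0.69 without reconSCID replicate 2. With array weights 57 probe sets were called, 47 higher and 10 lower, none of them a related gene, and the reconSCID weights of 4.79, 0.12 and 0.80 rest that fit on replicate 1. Limma called 0 probe sets under the other 15 alternatives that give such a count, with 0 also when each sample was left out in turn; the mean of a gene's probe sets gives none. The labels name no pairing, and deviations of same-numbered samples correlated at 0.47, -0.51 and 0.31. ReconSCID replicate 2, of the smaller array set, correlated negatively with reconRAG1KO replicates 1 to 3 whatever the number (-0.53, -0.51 and -0.44). These values therefore cannot decide whether the numbers pair the samples. With the replicate block, over numbers 1 to 3, limma called 0 probe sets and the median of the 10 was 0.23. Median centring and quantile normalization kept all 10 higher.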
